A study of Mus musculus with 12 samples.

Results

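Glutathione S-transferases are enzymes that join the tripeptide glutathione to electrophilic compounds. The 10 members described here were found by gene symbol in both deposited tables: Gsta3 and Gsta4 of the alpha class, Gstm1, Gstm2 and Gstm5 of the mu class, Gstp1 of the pi class, Gstt1 of the theta class, Gsto1 of the omega class, and the microsomal enzymes Mgst1 and Mgst3. All 10 were listed among the 22114 genes of the table for the Nrf2 cultures and among the 21916 genes of the table for the Keap1 cultures. The cells were fibroblasts isolated from mouse embryos at day 13.5 to 14.5, and their RNA was sequenced in 12 libraries from 4 groups of 3. Every culture was homozygous for 1 engineered allele, grown in pyruvate-free medium with 10% serum, infected with adenovirus at a multiplicity of 500 and collected 4 days later. The genotype LSL-Nrf2D29H with adenoviral Cre gave the group Nrf2D29H/D29H (called D29H here). The same genotype with empty adenovirus gave the group Nrf2LSL/LSL, which the labels call Nrf2 KO because the allele is not expressed in working form before Cre (called labelled knockout). The genotype CA-Keap1R554Q with adenoviral Cre gave Keap1R554Q/R554Q (called R554Q), and with empty adenovirus Keap1WT/WT, in which Keap1 works as wild type (called wild type). No group paired cells free of an engineered allele with Cre, so the effects of Cre and of the switched-on allele cannot be told apart. The labels do not say whether the 3 libraries of a group came from separate embryos or cultures, so p-values measure the spread between these libraries, which may be technical.

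NRF2, the product of Nfe2l2, is a transcription factor that binds antioxidant response elements near genes of detoxification and glutathione metabolism. KEAP1 binds NRF2 and marks it for degradation, and the D29H and R554Q changes lie in the respective surfaces of NRF2 and KEAP1 that meet. Soluble glutathione S-transferases work as dimers grouped into classes by sequence, while the microsomal enzymes are unrelated proteins of internal membranes. Alpha, mu, pi and microsomal members are textbook NRF2 targets in liver and other tissues of the mouse.

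Depth was 14963004 to 23818477 counted reads per library, and labelled-knockout replicate 3 was the shallowest. Reads of Nfe2l2 were present in the libraries labelled knockout, at 42.6 ± 3.41 CPM (reads scaled to a common library size) against 53 ± 3.8 in D29H (SD, n = 3 each), so the gene's count does not mark the silenced allele. All 9 fibroblast markers were detected, with a summed level of 14611 to 20738 CPM, highest in the labelled knockout. The hepatocyte markers Alb, Afp, Ttr and Apoa1 were each under 0.5 CPM in every library, and their list summed to 0.327 to 0.686 CPM in the labelled knockout, 1.01 to 1.39 in D29H, 1.14 to 1.61 in wild type and 1.19 to 1.75 in R554Q. Pecam1 and Cdh5, 2 of 5 endothelial markers, were also under 0.5 CPM in every library, while that list summed to 15.2 to 23.8 CPM. So were Epcam, Cdh1 and Krt5, 3 of 6 epithelial markers, while that list summed to 2.2 to 7.96 CPM. Markers of skeletal muscle summed to 14.5 to 17.1 CPM in the labelled knockout, 12.6 to 15.1 in D29H, 12.6 to 14.8 in wild type and 9.51 to 10.4 in R554Q. Macrophage markers (5 of 6 listed) summed to 98.4 to 137 CPM in the labelled knockout and 129 to 141 in D29H. They summed to 82 to 92.6 in wild type and 58.1 to 70 in R554Q, and the part of any of these lists in the results was not tested. In bulk RNA, fewer cells of a type and less RNA per cell cannot be told apart.

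The sequence before the transcription start was examined for the members because antioxidant response elements are read from DNA. Mouse promoter windows from RefSeq (GRCm38.p6; 250 bases before to 50 after a start) covered 9 of the 10 members in 11 windows, and Gsta4 had no entry. The core element TGACNNNGC was searched on both strands, and other spellings of the antioxidant response element were not searched. It was present in 12.4% of all 32851 windows and in a window of 14% of 27025 genes. Among the members it was in windows of Gsta3, Gstm5 and Mgst1 (the first of 2 starts). The related AP-1 element TGANTCA was present in 7.81% of all windows and in a window of 8.97% of genes. Among the members it was in the windows of Gstm5 and Gstp1. No match of the core as searched overlapped an AP-1 match. The 250 bases before the start are printed 5′ to 3′ on the gene's strand for 5 members: those with a match, and Gstm1 as a member that changed strongly and had none. Capitals mark the core element in Gsta3 (chr1:21240335-21240584), Mgst1 (chr6:138140277-138140526) and Gstm5 (chr3:107895604-107895853), and the AP-1 element in Gstp1 (chr19:4037913-4038162). The Gstm1 stretch (chr3:108017974-108018223) has no capitals.
Gsta3: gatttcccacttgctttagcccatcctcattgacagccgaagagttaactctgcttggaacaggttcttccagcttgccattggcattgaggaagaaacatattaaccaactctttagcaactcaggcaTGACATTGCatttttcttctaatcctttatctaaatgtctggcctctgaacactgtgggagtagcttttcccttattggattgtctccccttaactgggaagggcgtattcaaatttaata
Mgst1: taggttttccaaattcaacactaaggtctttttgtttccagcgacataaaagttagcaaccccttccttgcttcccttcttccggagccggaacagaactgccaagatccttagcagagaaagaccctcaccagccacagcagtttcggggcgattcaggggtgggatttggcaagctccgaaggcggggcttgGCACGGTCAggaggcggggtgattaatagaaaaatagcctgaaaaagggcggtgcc
Gstm5: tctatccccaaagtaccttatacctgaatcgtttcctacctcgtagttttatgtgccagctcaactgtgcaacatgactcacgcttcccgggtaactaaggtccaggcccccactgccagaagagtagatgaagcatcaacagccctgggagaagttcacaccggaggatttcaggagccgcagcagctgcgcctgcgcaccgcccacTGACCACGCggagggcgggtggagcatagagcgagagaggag
Gstm1: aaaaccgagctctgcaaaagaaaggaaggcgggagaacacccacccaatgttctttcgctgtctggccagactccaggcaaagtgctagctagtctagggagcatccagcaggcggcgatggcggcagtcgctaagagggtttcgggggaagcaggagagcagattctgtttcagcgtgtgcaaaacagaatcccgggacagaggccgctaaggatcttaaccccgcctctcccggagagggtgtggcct
Gstp1: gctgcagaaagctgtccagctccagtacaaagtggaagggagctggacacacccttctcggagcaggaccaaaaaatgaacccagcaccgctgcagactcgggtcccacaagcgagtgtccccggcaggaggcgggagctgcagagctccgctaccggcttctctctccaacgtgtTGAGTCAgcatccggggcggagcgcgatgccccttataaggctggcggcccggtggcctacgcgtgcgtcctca
The match began at position -121 from the start in Gsta3 (TGACATTGC), at -42 in Gstm5 (TGACCACGC) and at -56 in Mgst1, where it lies on the other strand (TGACCGTGC when read there). The AP-1 match of Gstp1 (TGAGTCA) began at -74. It is followed by gc, so the stretch differs from the core as searched only by G in place of C. The AP-1 match of Gstm5 (TGACTCA) began at -176. These are matches of letters in a short window and not measured binding, and the windows of Gstm1, Gstm2, Mgst3, Gsto1 and Gstt1 held neither set of letters.

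In the Nrf2 cultures, Gsta4, Gstm1 and Mgst1 were several times higher in D29H than in the labelled knockout, and Gstm2 was slightly higher. In the Keap1 cultures, Gsta4, Gstm1 and Mgst1 rose from wild type to R554Q, with smaller rises of Gstp1 and Gstm2. Gsto1, Gstm5 and Gstt1 did not pass the test in either culture. Mgst3 was lower in every R554Q library than in every wild-type library and lay at the threshold there (adjusted p 0.0543 in edgeR, under 0.05 in DESeq2 and in the authors' deposited table). Gsta3 had too few reads outside the Cre groups for a test of its change and is given by its counts. Of the other 9 members, 4 were higher in D29H at an adjusted p under 0.05 in edgeR's quasi-likelihood test, where 3.47% of all 14370 genes tested were called higher and 1.28% lower, 4.75% in all. In the Keap1 cultures 5 of 9 were higher, against 3.77% of 14128 genes called higher and 2.4% called lower, 6.17% in all. The median log2 fold change of these 9 members was 0.37 for D29H and 0.46 for R554Q, beside medians of 0.00 and -0.00 over all genes tested. Every D29H library was above every labelled-knockout library for 5 of the 9, as it was for 12.7% of the tested genes listed in both tables. Every R554Q library was above every wild-type library for 5 of the 9 and for 13.3% of such genes. The members were chosen with earlier results of these data known.

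**Figure D1:**
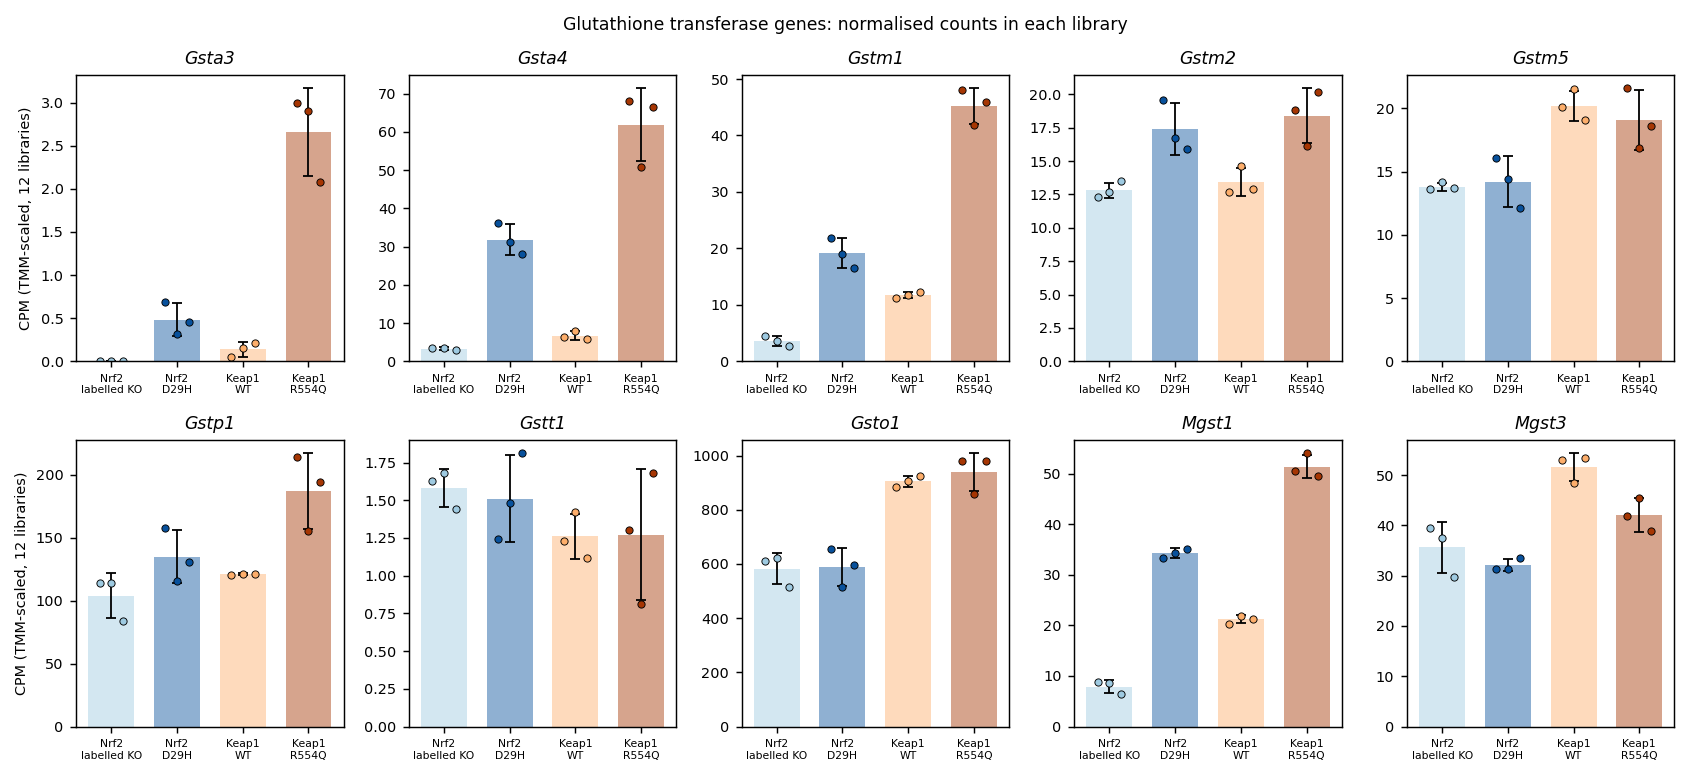
Level of each of the 10 members in CPM, on an axis that starts at 0 and differs between panels; points are the 12 libraries, bars group means and error bars SD (n = 3). Gsta4, Gstm1 and Mgst1 are higher in both Cre groups than in both control groups, while Gsto1 and Gstm5 separate the Nrf2 from the Keap1 cultures.

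Gsta4 (ENSMUSG00000032348; chromosome 9, 78191966 to 78209348, plus strand, GRCm38) makes an alpha-class enzyme known for conjugating hydroxynonenal, a reactive product of lipid peroxidation. Its level was 3.56, 3.39 and 3.01 CPM in the 3 labelled-knockout libraries and 36.2, 31.1 and 28.1 CPM in D29H. It was 6.3, 7.95 and 5.89 CPM in wild type and 68.2, 50.9 and 66.6 CPM in R554Q. The groups did not overlap in either culture, and the lowest Cre library (28.1 CPM) was above the highest control library of either culture (7.95 CPM). In edgeR, the change was 3.24 on the log2 scale (SE 0.14, adjusted p 2.3e-14) for D29H and 3.21 (SE 0.13, adjusted p 2.8e-11) for R554Q. The difference between these changes was 0.04, with a 95% interval of -0.38 to 0.46 and an adjusted p of 0.959 in the edgeR fit of all 12 libraries.

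Gsta3 (ENSMUSG00000025934; chromosome 1, 21240589 to 21265661, plus strand) makes an alpha-class enzyme and was near the limit of detection in these cells. Its read counts were 0 in all 3 labelled-knockout libraries and 15, 7 and 10 in D29H. They were 1, 3 and 4 in wild type and 60, 64 and 42 in R554Q. Reads were thus present in every library except those labelled knockout. With the labelled knockout set at a floor of 3 counts over the group, D29H was at least 10.3-fold higher. That bound covers counting error in the labelled knockout only and takes the 32 reads over D29H as exact. The filter on low counts kept Gsta3 out of the edgeR test there. In the Keap1 cultures it passed that filter through the R554Q libraries alone, so no test is given there either, and DESeq2 gave no adjusted p. With Gsta3 at its bound, the median over the 10 members in the Nrf2 comparison was 0.41.

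Gstm1 (ENSMUSG00000058135; chromosome 3, 108012255 to 108017973, minus strand) makes a mu-class enzyme of broad substrate range. It was at 4.46, 3.56 and 2.74 CPM in the labelled knockout, 21.9, 19 and 16.5 in D29H, 11.2, 11.7 and 12.3 in wild type and 48, 41.8 and 45.9 in R554Q. The 4 groups were fully separate, and the wild-type libraries lay between the labelled knockout and D29H. It rose by 2.39 on the log2 scale (SE 0.16, adjusted p 1.8e-10 in edgeR) in D29H and by 1.95 (SE 0.10, adjusted p 2.7e-10) in R554Q. The difference of 0.44 had a 95% interval of 0.05 to 0.84 and an adjusted p of 0.402 over all genes in edgeR. Of the transcript's 50-base words, 18.9% also occur in Gstm2-ps1, Gstm3, Gm8834 or the member Gstm2, so part of its count depends on how shared reads were assigned.

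Gstm2 (ENSMUSG00000040562; chromosome 3, 107981702 to 107986453, minus strand), its mu-class neighbour, was at 12.3, 12.7 and 13.5 CPM in the labelled knockout and 19.6, 16.7 and 15.9 in D29H. It was at 12.7, 14.6 and 12.9 CPM in wild type and 18.8, 16.1 and 20.2 in R554Q. All 6 Cre libraries were above all 6 control libraries, by a small margin. Of its 50-base words 5.65% occur elsewhere, in Gstm1 among others. The log2 fold changes were 0.44 (SE 0.12, adjusted p 0.0369 in edgeR) and 0.46 (SE 0.11, adjusted p 0.0244). Neither call was stable: leaving out any single library of the Nrf2 cultures other than labelled-knockout replicate 3 raised the adjusted p above 0.05, up to 0.132, and leaving out R554Q replicate 1 (0.112), wild-type replicate 1 (0.0992) or wild-type replicate 3 (0.1) did so in the Keap1 cultures.

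Gstm5 (ENSMUSG00000004032; chromosome 3, 107895821 to 107898686, plus strand), the mu-class gene whose upstream stretch holds both elements printed above, did not pass the test in either culture. It was at 13.6, 14.2 and 13.7 CPM in the labelled knockout and 16.1, 14.4 and 12.1 in D29H. It was at 20.1, 21.5 and 19.1 CPM in wild type and 21.6, 16.9 and 18.6 in R554Q. Cre and control libraries overlapped in both cultures, with log2 fold changes of 0.04 (adjusted p 0.894 in edgeR) and -0.08 (adjusted p 0.684). The gene overlaps 4933431E20Rik on the opposite strand, whose counts were 9.65% to 33% of its own, and whether counting used the strand is not given in the sources used here.

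The mu-class genes form a cluster of 7 genes within 149 kb of chromosome 3 (107895821 to 108044894), in the order Gstm5, Gstm7, Gstm6, Gstm3, Gstm2, Gstm1 and Gstm4. The changes within it were uneven. Gstm1, 116 kb from Gstm5, had the values given above, while Gstm4, the next gene at 145 kb, had log2 fold changes of -0.03 and 0.30 that did not pass the test. Gstm6 was low, with 8 to 19 reads per library in the labelled knockout and 30 to 44 in D29H. Its lowest labelled-knockout library was under the level of the filter on low counts. Gstm6 thus entered the D29H test with the help of the D29H libraries. Its log2 fold change for D29H was 1.35 (adjusted p 0.0323 in edgeR), a call lost without D29H replicate 2 (0.196) or 3 (0.174) or labelled-knockout replicate 2 (0.97, adjusted p 0.174), and 0.80 for R554Q (adjusted p 0.143). Gstm7 had values of 0.19 and 1.04, the second with an adjusted p of 0.0501, and Gstm3 had 1 read and could not be tested. Summed over the class, mu-class reads rose by 0.64 (SE 0.10, adjusted p 0.00073 in edgeR) in D29H and by 0.81 (SE 0.08, adjusted p 8.4e-06) in R554Q on the log2 scale.

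**Figure D2:**
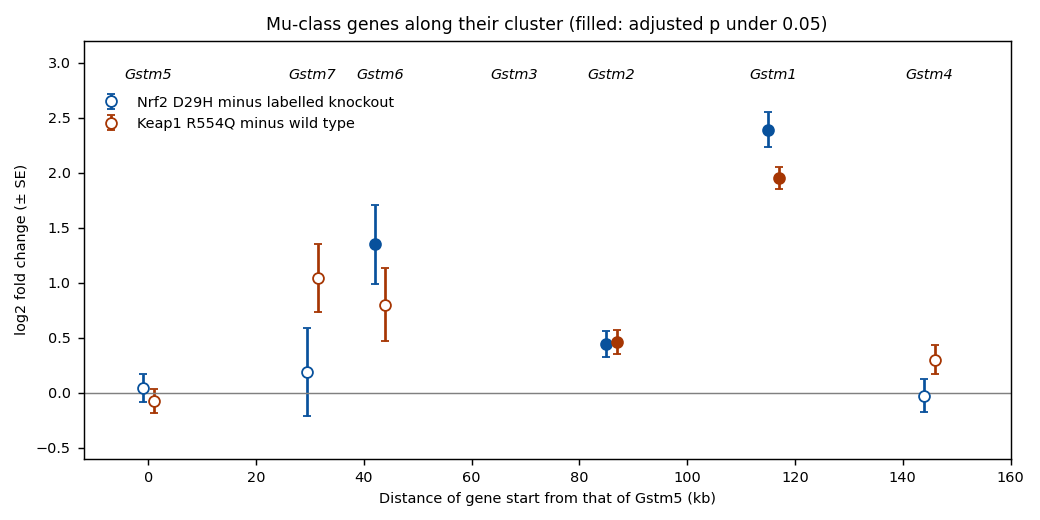
Log2 fold change of the tested mu-class genes against distance in kb from the start of Gstm5, in the Nrf2 (blue) and the Keap1 (brown) cultures; bars are standard errors and filled points have an adjusted p under 0.05 in edgeR. Gstm1, at 116 kb, stands above its neighbours Gstm2 and Gstm4 in both.

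Gstp1 (ENSMUSG00000060803; chromosome 19, 4035407 to 4037921, minus strand) makes the pi-class enzyme and was the second most abundant member per length. It was at 114, 114 and 83.6 CPM in the labelled knockout and 158, 116 and 131 in D29H. It was at 120, 121 and 121 CPM in wild type and 214, 155 and 194 in R554Q. The Cre libraries were above the controls in both cultures, by as little as 116 against 114 CPM in the Nrf2 cultures. The rise passed the test in R554Q, at 0.64 (SE 0.10, adjusted p 0.00074 in edgeR), and not in D29H, at 0.37 (SE 0.12, adjusted p 0.0746). The difference of -0.26 had a 95% interval of -0.63 to 0.11 and an adjusted p of 0.597 in edgeR, so the cultures were not shown to differ. Without labelled-knockout replicate 1 the D29H value was 0.44 (adjusted p 0.0406), and without labelled-knockout replicate 3 it was 0.25 (adjusted p 0.21). Of the transcript's 50-base words 33.7% occur in Gstp2 or Gstp-ps as well.

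Gsto1 (ENSMUSG00000025068; chromosome 19, 47854970 to 47864790, plus strand) makes the omega-class enzyme, which reduces dehydroascorbate and other substrates with glutathione, and was the most abundant member. It was at 611, 623 and 516 CPM in the labelled knockout, 657, 516 and 595 in D29H, 885, 907 and 924 in wild type and 979, 860 and 979 in R554Q. Cre and control libraries overlapped in each culture, while all Keap1-culture libraries were above all Nrf2-culture libraries. The log2 fold change was 0.01 (95% interval -0.24 to 0.26, adjusted p 0.963 in edgeR) for D29H and 0.06 (-0.12 to 0.24, adjusted p 0.711) for R554Q. The gene overlaps Wdr96 on the opposite strand, whose counts were 10.7% to 21.9% of its own.

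Gstt1 (ENSMUSG00000001663; chromosome 10, 75783813 to 75798584, minus strand) makes a theta-class enzyme and had 18 to 40 reads per library. It was at 1.63, 1.68 and 1.44 CPM in the labelled knockout and 1.24, 1.48 and 1.81 in D29H. It was at 1.23, 1.42 and 1.12 CPM in wild type and 1.3, 0.815 and 1.68 in R554Q. Cre and control libraries overlapped in each culture. The log2 fold changes were -0.08 (95% interval -0.66 to 0.50, adjusted p 0.895 in edgeR) and 0.01 (-0.66 to 0.67, adjusted p 0.994). These intervals are wide at this depth, and a change within them would fit the reads as well.

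Mgst1 (ENSMUSG00000008540; chromosome 6, 138140316 to 138156755, plus strand) makes a membrane-bound transferase that also reduces lipid peroxides. It was at 8.84, 8.55 and 6.34 CPM in the labelled knockout and 33.4, 34.4 and 35.2 in D29H. It was at 20.3, 21.9 and 21.3 CPM in wild type and 50.5, 54 and 49.6 in R554Q. The 4 groups were separate, with wild type between the labelled knockout and D29H, as for Gstm1. It rose by 2.10 on the log2 scale (SE 0.13, adjusted p 1.6e-11 in edgeR) in D29H and by 1.28 (SE 0.09, adjusted p 2.3e-08) in R554Q. Mgst1 was the 1 member whose change differed between the alleles at the threshold. The difference was 0.82 (SE 0.15, 95% interval 0.52 to 1.12, adjusted p 0.0436 in edgeR). Of 14794 genes, 0.00676% were called higher and 0.0203% lower, 0.027% in all (4 genes). The changes had unlike controls, the labelled knockout and wild type, in different cultures. Allele, control, culture and table cannot be told apart in this difference. Over 19 alternatives the difference ran from 0.67 to 0.90 and its adjusted p from 0.00057 to 0.208, under 0.05 in 5 of them, and leaving out 1 library kept the call in 3 of 12 cases.

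Mgst3 (ENSMUSG00000026688; chromosome 1, 167371966 to 167393841, minus strand) makes another microsomal enzyme, which acts on lipid peroxides and leukotriene A, and had negative values in both comparisons. It was at 39.5, 37.4 and 29.8 CPM in the labelled knockout, 31.3, 31.4 and 33.5 in D29H, 52.9, 48.5 and 53.4 in wild type and 41.8, 45.5 and 38.8 in R554Q. All R554Q libraries were below all wild-type libraries, and the Nrf2 groups overlapped. For R554Q the value was -0.29 on the log2 scale (SE 0.09, 95% interval -0.47 to -0.11, adjusted p 0.0543 in edgeR) and for D29H -0.16 (SE 0.11, adjusted p 0.404). In the authors' deposited table the adjusted p for R554Q was 0.0374. Without R554Q replicate 2 it was 0.0433 in edgeR, with no filter on low counts 0.0321 and in DESeq2 0.0423, so the side of the threshold depended on the setting.

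**Figure D3:**
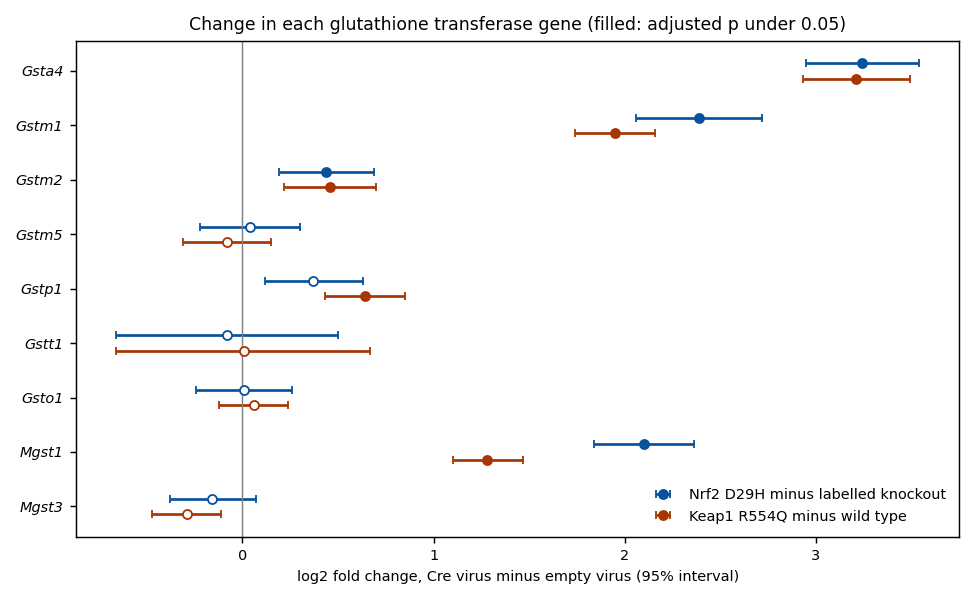
Log2 fold change (Cre minus empty adenovirus) of 9 members (all but Gsta3) with 95% intervals from edgeR, for D29H (blue) and R554Q (brown); filled points have an adjusted p under 0.05. Gsta4, Gstm1 and Mgst1 lie well above 0 in both cultures, and the intervals of Gsto1, Gstm5 and Gstt1 cross 0 in both.

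The control groups differed from each other as well. Between the labelled knockout and wild type, 6 of the 9 members other than Gsta3 were lower in the labelled knockout and none was higher (edgeR), where 10.1% of all genes were called lower and 9.58% higher, 19.7% in all. The log2 differences were -1.68 for Gstm1 (adjusted p 3e-08), -1.40 for Mgst1 (adjusted p 4.2e-09), -0.63 for Gsto1 (adjusted p 0.00011), -0.55 for Gstm5 (adjusted p 0.00154) and -0.53 for Mgst3 (adjusted p 0.00047). Gsta4 was at 0.499 times its wild-type level (adjusted p 0.00018). Gsta3 had 8 reads over the wild-type libraries and 0 over the labelled knockout. Gstm2, Gstp1 and Gstt1 did not pass the test, at -0.07, -0.21 and 0.34. These contrasts set different cultures and separate tables side by side, so allele, culture and table cannot be told apart.

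Between the mutants, 7 of the 9 members other than Gsta3 were higher in R554Q than in D29H and none was lower, where 13.4% of all genes were called higher and 13.1% lower, 26.5% in all (edgeR). The log2 differences were 1.24 for Gstm1 (adjusted p 7e-08), 0.96 for Gsta4 (adjusted p 3.3e-06), 0.67 for Gsto1 (adjusted p 5.6e-05) and 0.58 for Mgst1 (adjusted p 0.00011). They were 0.47 for Gstp1 (adjusted p 0.00775), 0.43 for Gstm5 (adjusted p 0.00924) and 0.39 for Mgst3 (adjusted p 0.00609). The calls for Gstp1 and Gstm5 were lost without 1 of several libraries: Gstp1 without D29H replicate 2 (adjusted p 0.0644) or R554Q replicate 1 (0.0623), and Gstm5 without D29H replicate 3 (0.0723) or R554Q replicate 1 (0.0728). Both contrasts share libraries with the Cre comparisons, so their values are given side by side and not as separate support.

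Across the 4 groups, 5 of the 9 members other than Gsta3 had the order labelled knockout, wild type, D29H, R554Q from lowest to highest mean: Gsta4, Gstm1 and Mgst1 with no overlap between neighbours, and Gstm2 and Gstp1 with overlaps. Of 14784 genes 4.21% had that order of means, and 0.21% had it with no overlap. The few reads of Gsta3 followed the same order. Gsto1 ran labelled knockout, D29H, wild type, R554Q, and Gstm5 labelled knockout, D29H, R554Q, wild type. Mgst3 ran D29H, labelled knockout, R554Q, wild type, and Gstt1 wild type, R554Q, D29H, labelled knockout. D29H and wild type were not tested against each other.

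Per length, the authors' deposited FPKM let levels be compared between genes. The 10 members summed to 711 ± 73.9 FPKM in the labelled knockout, 842 ± 82.9 in D29H, 999 ± 11.2 in wild type and 1252 ± 99.8 in R554Q (SD, n = 3 each). Gsto1 made up 70.3% of that sum in the labelled knockout, 61.2% in D29H, 73.7% in wild type and 63% in R554Q, and Gstp1 15.3% to 21.8%. Gsta4, Gstm1 and Mgst1 together made up 1.85% in the labelled knockout and 9.56% in D29H, and 3.3% in wild type and 11.4% in R554Q.

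**Figure D4:**
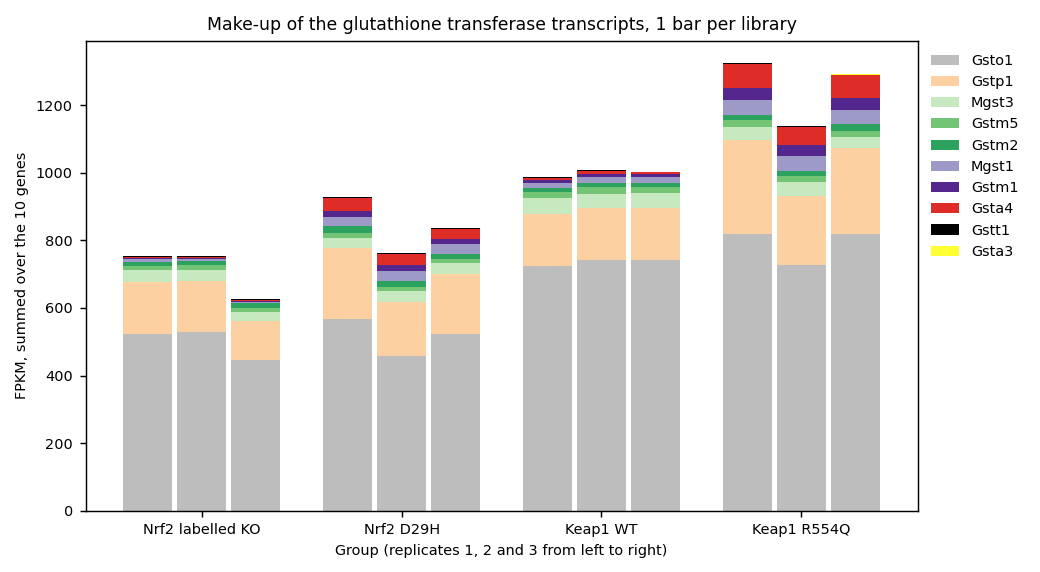
Summed FPKM of the 10 members in each of the 12 libraries, with the share of each member stacked. Gsto1 is the largest part of every bar, and the combined part of Gsta4, Gstm1 and Mgst1 is larger in both Cre groups.

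Of 21 further genes of the superfamily and its relatives, 14 had enough reads for the test in each culture. Gsta1 of the alpha class had 1 to 2 reads per library in the labelled knockout and 29 to 38 in D29H, and 0 to 6 in wild type and 70 to 90 in R554Q. Like Gsta3, it passed the filter through the Cre libraries and is given by its counts. Of the other 13 genes 2 were called higher in each culture and none lower (edgeR), where 3.47% and 3.77% of all genes were called higher, and the medians were 0.17 and -0.02. Mgst2, a microsomal enzyme, had 5 to 23 reads per library in the labelled knockout and 52 to 61 in D29H. It rose by 1.70 (adjusted p 0.00291 in edgeR) in D29H and 1.47 (adjusted p 0.00453) in R554Q on the log2 scale. Its lowest labelled-knockout library, at 5 reads, was under the level of the filter. Mgst2 thus entered the D29H test with the help of the D29H libraries. The other call in D29H was Gstm6, which entered that test in the same way. The D29H calls thus rest on genes that the labelled-knockout libraries alone would not have carried through the filter. In R554Q the other call was Ptges, a prostaglandin E synthase, at 0.35 (adjusted p 0.0333 in edgeR). The call of Ptges was lost without R554Q replicate 1 (0.135) or any wild-type library (0.101 to 0.131), with the replicate block (0.0846), and with GC and gene-length offsets, where the value was 0.23 (adjusted p 0.138). DESeq2 called Mgst2 in both cultures and Ptges in R554Q, and gave no adjusted p for Gstm6 in D29H. Gsta1 is uncertain as a single gene, since 90.5% of its 50-base words occur in Gsta2, Gm3776 or Gm10639. Of 14 genes of the mercapturate pathway, which trims and acetylates glutathione conjugates, 8 and 7 were tested and none was called in either culture by edgeR or by DESeq2, with 3 and 3 at an unadjusted p under 0.05, where 22.9% and 24.2% of all genes tested were. Summed by class, alpha-class reads rose by 3.31 and 3.29 (adjusted p 9.9e-15 and 1.1e-11 in edgeR) and microsomal reads by 0.64 and 0.39 (adjusted p 0.00143 and 0.0077), on the log2 scale. The pi-class sum was at 0.37 in D29H (adjusted p 0.0745) and rose by 0.64 in R554Q (adjusted p 0.00071). Theta-class sums were at 0.20 and -0.03 and omega-class sums at 0.01 and 0.06, none past the test.

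The genes whose log2 levels followed each member most closely over the 12 libraries were listed by Pearson's r among 10573 genes, as a description, since the 4 groups set most of the variation. For Gsta4 they were Slc40a1, an iron exporter (r = 0.987), and Nqo1, a quinone reductase (r = 0.984). For Gsta3 they were Srxn1, which restores oxidised peroxiredoxins (r = 0.983), and Pgd of the pentose phosphate pathway (r = 0.981). For Gstm1 they were Fth1, the ferritin heavy chain (r = 0.993), and Esd (r = 0.989), and for Mgst1 they were Esd (r = 0.994) and Aox1 (r = 0.980). Gstp1 was nearest to Ptgr1 (r = 0.964), Gstm2 to Lpar1 (r = 0.932), Gsto1 to Ramp3 (r = 0.987), Gstm5 to Bag2 (r = 0.964), Mgst3 to Klk8 (r = 0.964) and Gstt1 to Tram1l1 (r = 0.898).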

How the data were processed

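RNA from 12 libraries of mouse embryonic fibroblasts was counted per gene in 1 table for the Nrf2 cultures and 1 for the Keap1 cultures. Per the file headers, the authors deposited raw read counts, FPKM, a normalised signal averaged by group, and their own test results (log2 fold change, p-value, adjusted p-value). The submitters' processing notes name STAR, DESeq2 and the build mm10; which tool counted reads, with which annotation and whether by strand, is not given in the sources used here. The FPKM, recomputed from counts and listed gene lengths, matched to within 5.0e-10%. Positions are as the tables list them and are named GRCm38.

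Tests were run on the counts with edgeR 4.0.16 (R 4.3.3), with genes kept by filterByExpr, TMM scaling, quasi-likelihood tests and Benjamini-Hochberg adjustment over all genes tested, called at an adjusted p under 0.05. Each Cre comparison used its own 6 libraries. The difference between alleles and the contrasts across cultures used 1 fit of all 12 libraries. CPM are scaled over all 12 libraries. Each SE is the log2 value over the root of its F statistic. Alternatives were RLE scaling, no low-count filter, a filter at a mean of 50 counts, DESeq2 1.42.0, limma-trend (limma 3.58.1), a replicate block, offsets for GC content and gene length (lowess span 0.3), all 12 libraries in one fit, and leaving out each library. The likeness of genes used log2 CPM (prior count 2) over the 12 libraries; partners had to average at least 100 counts, the members themselves did not.

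Replicates differed by more than sampling noise (chi-square per degree of freedom 4.95 to 25.1 over 12 pairs), so none was merged. The members, the further gene lists and the tests were chosen with earlier results of these data known. All 10 members are named; genes of the wider list are named where they passed the test or lie in the mu cluster, and for each member the genes with the highest r.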

Additional observations from a re-analysis of the deposited data

Results flagged for a closer look

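The change of Mgst1 passed the test of a difference between the alleles as reported, and not under most other settings. Its rise with D29H exceeded its rise with R554Q by 0.82 on the log2 scale (SE 0.15, adjusted p 0.0436 in edgeR's quasi-likelihood test of all 12 libraries). All 3 libraries of each Cre group were above all 3 of their controls. The labelled knockout had 6.34 to 8.84 CPM and wild type 20.3 to 21.9 CPM, while D29H had 33.4 to 35.2 and R554Q 49.6 to 54. Of 19 alternatives 5 kept the adjusted p under 0.05 and 14 did not, the replicate block (0.182), RLE scaling (0.0506) and 9 of the 12 fits without a library among them. The difference itself ran from 0.67 to 0.90. The changes were taken against unlike controls in different cultures, so allele, control, culture and table cannot be told apart. The cause was not tested.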

How the results depend on the processing

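Of 855 alternatives of single values (Gsta3 left out), 820 kept their side of the threshold. Of the rest, 29 lost the call and 6 gained one, and none reversed a call. Signs of member values changed in 32, among values not past the threshold, and signs of the omega sum in D29H and the theta sum in R554Q, both near 0, changed in some. Gsta4, Gstm1 and Mgst1 kept their calls in both Cre comparisons throughout. Of the 9 members other than Gsta3, those called ran from 3 to 5 (4 as reported) in the Nrf2 comparison, 4 to 6 (5) in the Keap1 comparison and 5 to 7 (7) between mutants, and were 6 between controls in every alternative. For the difference between alleles the count of 1 became 0, with Mgst1 at 0.81 (adjusted p 0.0506) under RLE scaling, 0.83 (0.0626) at a mean count of at least 50, 0.85 (0.0545) in limma and 0.67 (0.0965) with GC and gene-length offsets. Leaving out 1 library gave 0 to 1 and a Mgst1 difference of 0.7 to 0.9. Replicate numbers did not pair the libraries: deviations of the 6 same-number pairs correlated at -0.17 to 0.03. These are the numbers in the sample titles; the descriptions give labelled-knockout replicates 1 and 2 the numbers of D29H replicates 2 and 3, and those pairs correlated at 0.10 and 0.02. With the replicate block Gstm2 in R554Q had 0.46 (adjusted p 0.0518), the count for the allele difference was 0 (Mgst1 0.84, adjusted p 0.182), and members called without Gsta3 were 4, 4, 6 and 7 in the other contrasts. With GC and gene-length offsets the call of Gstm2 in D29H was lost (adjusted p 0.0531), and with no filter Gstp1 gained one there (0.0256). Calls over all genes moved with single libraries, in the Nrf2 comparison from 82 without D29H replicate 3 to 2192 without D29H replicate 1 (682 as reported), and in the Keap1 comparison from 238 without R554Q replicate 1 to 2875 without R554Q replicate 3 (872), so adjusted p-values of small changes moved with them. The microsomal sum in R554Q lost its call without wild-type replicate 2 (adjusted p 0.0548), and the pi-class sum in D29H gained one without labelled-knockout replicate 1 (0.0412).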
